A study of Homo sapiens with 6 samples.

Results

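The genes described here are 38 interferon-stimulated and antigen presentation genes, picked by symbol from the 20061 rows of the deposited table, and all 38 symbols were found. They fall into 3 genes of the ISG15 system, 4 transcription factors, 8 sensors and enzymes of double-stranded RNA, 16 antiviral effectors and 7 genes of class I antigen presentation. Polyadenylated RNA of HEYA8, an ovarian cancer line in long-standing use and labelled low grade serous by the submitters, was sequenced in 2 groups. The shETS1 group (3 samples) carried a stable lentiviral short hairpin RNA against ETS1, the founding member of a family of DNA-binding factors. The shLuciferase group (3 samples) carried one against luciferase, which has no human target, and was the negative control. All cells of both groups had been transduced with a lentivirus and grown in puromycin. The labels do not say how many hairpins or clones were used, or whether each sample was its own culture. The spread behind the authors' p-values may thus be technical. The table holds 1 FPKM value (fragments per kilobase of transcript, scaled to library size) per gene and group. Every level below is therefore the authors' group value, and the spread between samples and the depth of each are unknown.

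Interferons are secreted proteins that cells release after sensing viral RNA or DNA. Receptors for type I interferon activate Janus kinases, and these phosphorylate STAT proteins that join IRF9 and bind interferon-stimulated response elements in the promoters of a large set of target genes. Many products of these genes cut, edit or sequester viral RNA or block viral entry, while others load viral and tumour peptides onto class I molecules for inspection by T cells. Cancer cells differ widely in how much of this set they express without added interferon. The comparison of the groups asks which of these transcripts differ in HEYA8 cells when ETS1 is lowered.

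Cell identity and the knockdown were looked at first. The authors' deposited table lists ETS1 at 17.9 FPKM in shETS1 and 41.4 FPKM in shLuciferase, q = 0.00964. The carcinoma genes PAX8 (76.8 FPKM in shETS1 and 79.7 FPKM in shLuciferase) and KRT18 (1498 FPKM in shETS1 and 2044 FPKM in shLuciferase) were expressed, as were KRT7 and KRT8. Of the other listed carcinoma genes, WT1 was at 3.13 FPKM in shETS1 and 3.58 FPKM in shLuciferase and EPCAM at 1.82 FPKM in shETS1 and 1.71 FPKM in shLuciferase. MUC16, which encodes a mucin used as an ovarian tumour marker, was listed at 0 in shETS1 and at 0.000625 FPKM in shLuciferase. All 6 listed leukocyte markers stayed under 1 FPKM in both groups, with PTPRC, TYROBP and CD3E listed at 0, and both plasmacytoid dendritic cell markers, CLEC4C and IL3RA, were listed at 0 as well. LYZ was at 0.781 FPKM in shETS1 and 0.672 FPKM in shLuciferase, and CD14 at 0.525 FPKM in shETS1 and 0.688 FPKM in shLuciferase. CD79A was at 0.266 FPKM in shETS1 and 0.357 FPKM in shLuciferase. The levels below are therefore those of a culture in which PTPRC, TYROBP, CD3E, CLEC4C and IL3RA were listed at 0. In such bulk RNA, fewer expressing cells and less RNA per cell cannot be told apart.

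HEYA8 cells expressed part of the set strongly and part of it hardly at all. In shETS1, 25 of the 38 genes reached 1 FPKM and 4 reached 100 FPKM, against 24 and 3 genes in shLuciferase. IFITM3, B2M and IFITM2 stood highest. Class I presentation, the ISG15 system and the transcription factors had no member with a mean under 1 FPKM, while 10 of the 16 antiviral effectors and 4 of the 8 RNA sensors and enzymes did. Classical inducible genes differed widely in level. MX1, MX2, RSAD2, XAF1, BST2 and IFI44L all had a mean below 1 FPKM and had not been tested by the authors. In contrast, ISG15, IFI6 and IFIT3 had means of 42.9, 14.2 and 6.06 FPKM. In all, 29 of the 38 were tested and 9 were not.

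**Figure D1:**
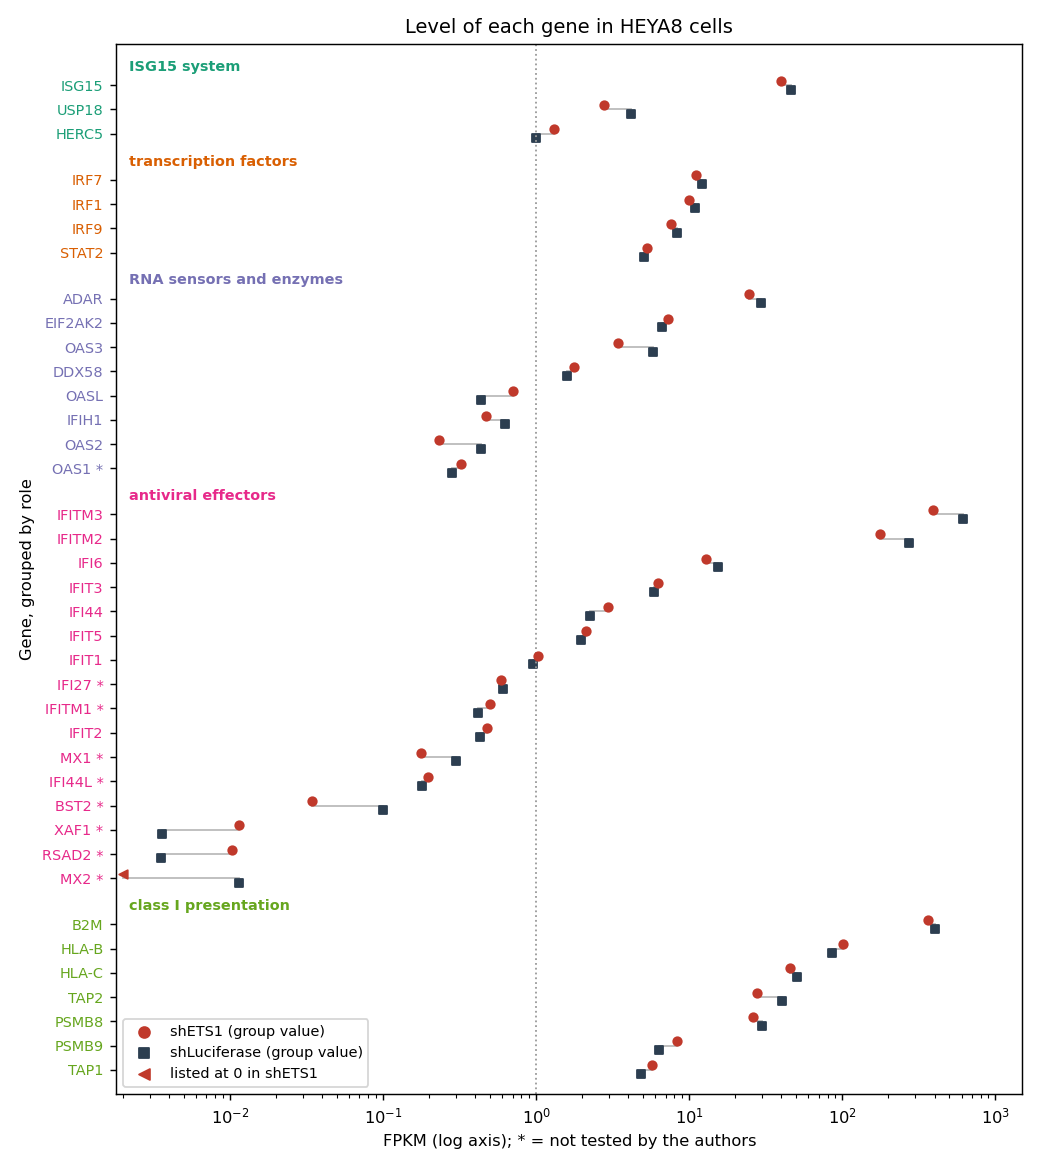
Level of each of the 38 genes on a log FPKM axis, grouped by role and ordered by mean level within a role; red circles are the authors' shETS1 group values and dark squares their shLuciferase group values, with a red triangle where shETS1 is listed at 0 and a star beside untested genes. IFITM3, B2M and IFITM2 lie furthest right, and 14 genes have a mean under 1 FPKM, the dotted line.

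None of the 29 tested genes was called (q at most 0.05) in the authors' deposited table, where 0.812% of the 11952 tested genes were. At an unadjusted p-value of at most 0.05 there were 6 of the 29, and all 6 had their lower level in shETS1: IFITM3, IFITM2, TAP2, OAS2, USP18 and OAS3. Over the whole table, 3.04% of tested genes had such a p-value with a lower level and 3.9% with a higher level in shETS1, while no member had one with a higher level. The 6 are 20.7% of the tested members, and they include the near-identical neighbours IFITM2 and IFITM3, whose values may not be independent, and the neighbours OAS2 and OAS3. In the authors' deposited table they had q from 0.283 to 0.687 and did not pass. The next smallest p-value of a member in the authors' deposited table was 0.0748, that of OASL.

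Among the 24 tested members at 1 FPKM or more, 14 (58.3%) had a log2 ratio of shETS1 over shLuciferase below 0 and 10 above. Of all 10676 tested genes at that level, 47.4% were below 0. The median log2 ratio was -0.14 for the members and 0.02 for all these genes. The middle of the members' distribution lay between -0.26 and 0.14 (lower and upper quartiles), against -0.16 and 0.20 for all. The members thus included both directions, and 16 of the 24 (66.7%) differed by at most 1.25-fold, against 75.5% of all genes.

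**Figure D2:**
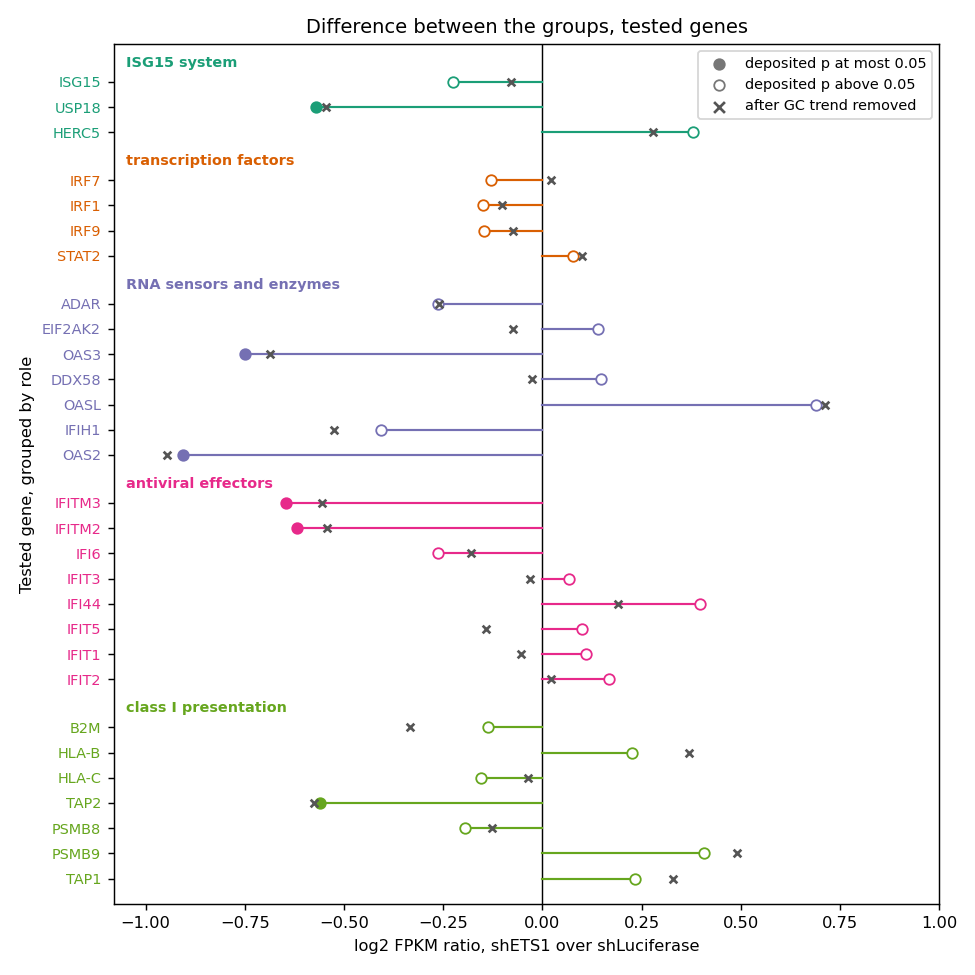
Log2 FPKM ratio (shETS1 over shLuciferase, horizontal axis) of the 29 tested genes, grouped by role; filled circles have a deposited p-value of at most 0.05 and open circles a larger one, and crosses give the ratio corrected for a trend with transcript GC content. The 6 filled circles all lie left of 0, from -0.91 (OAS2) to -0.56 (TAP2).

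The IFITM genes encode small membrane proteins that restrict the entry of enveloped viruses. IFITM3 was at 391 FPKM in shETS1 and 611 FPKM in shLuciferase, 1.57-fold lower, with a log2 ratio of -0.65. The authors' deposited table gives it p = 0.0074 and q = 0.283. IFITM2 was at 177 FPKM in shETS1 and 272 FPKM in shLuciferase, 1.53-fold lower, with a log2 ratio of -0.62. The authors' deposited table lists it with p = 0.00865 and q = 0.310. These are the 2 members with a p-value of at most 0.01. IFITM1 was not tested and stood at 0.495 FPKM in shETS1 and 0.419 FPKM in shLuciferase, far below its neighbours in both groups. Together IFITM2 and IFITM3 supplied 44.1% of the summed FPKM of the 38 genes in shETS1 and 53.1% in shLuciferase. The sum over all 38 was 1289 FPKM in shETS1 and 1664 FPKM in shLuciferase; without this pair it was 721 FPKM in shETS1 and 780 FPKM in shLuciferase, so most of the gap in the sum lay in the pair.

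The 3 IFITM genes lie within 12.8 kb of chromosome 11 (308107 to 320914, hg19), in the order IFITM2, IFITM1, IFITM3, and short reads may not always separate them. Aligned without stop codons, the GENCODE 29 coding sequences of IFITM2 (396 bases) and IFITM3 (399 bases) were identical at 93.9% of aligned positions. Of the 347 stretches of 50 bases in IFITM2, 50 (14.4%) also occur unchanged in IFITM3. The ratio of IFITM2 to IFITM3 was 0.454 in shETS1 and 0.445 in shLuciferase, so the values of both differed between the groups by about the same factor. The sources used here do not say how shared reads were divided, and the values of the pair may not be independent. The first coding bases of both are shown because they hold 11 of the 24 mismatched positions and the 3 inserted letters by which the pair can be told apart; capitals mark letters that differ or lack a partner in the alignment.
IFITM2: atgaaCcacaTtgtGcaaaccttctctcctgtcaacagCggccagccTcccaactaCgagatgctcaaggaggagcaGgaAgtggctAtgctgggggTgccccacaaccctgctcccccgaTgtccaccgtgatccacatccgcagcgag
IFITM3: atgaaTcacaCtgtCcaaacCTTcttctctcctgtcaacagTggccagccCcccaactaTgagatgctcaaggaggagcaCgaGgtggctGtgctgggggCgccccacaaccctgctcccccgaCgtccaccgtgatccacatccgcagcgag

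The oligoadenylate synthetases bind double-stranded RNA and make the messenger that switches on the nuclease RNase L. OAS1, OAS3 and OAS2 follow each other within 105 kb of chromosome 12 (113344739 to 113449528, hg19). OAS3 was at 3.44 FPKM in shETS1 and 5.78 FPKM in shLuciferase, 1.68-fold lower. The authors' deposited table lists it with p = 0.0450 and q = 0.687. OAS2 was at 0.231 FPKM in shETS1 and 0.433 FPKM in shLuciferase. The authors' deposited table lists it with p = 0.0321 and q = 0.611. Its log2 ratio of -0.91 was the lowest of the tested members but came from levels below 1 FPKM, and with 1 FPKM added to both levels it was -0.22. OAS1 was not tested, at 0.321 FPKM in shETS1 and 0.282 FPKM in shLuciferase. OASL, a relative without synthetase activity that lies elsewhere on the chromosome, had the highest log2 ratio of the tested members, 0.69. Its levels were 0.702 FPKM in shETS1 and 0.435 FPKM in shLuciferase, and the authors' deposited table gives q = 0.836. With 1 FPKM added to both levels OASL was at 0.25, and the lowest and highest ratios of the tested members were then those of IFITM3 (-0.65) and PSMB9 (0.36). No gene of the family passed.

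The other RNA sensors and enzymes differed less. ADAR, which edits adenosines in double-stranded RNA, was the most abundant of this role at 24.4 FPKM in shETS1 and 29.3 FPKM in shLuciferase. EIF2AK2 encodes PKR, the kinase that stops translation on binding double-stranded RNA, and was at 7.28 FPKM in shETS1 and 6.61 FPKM in shLuciferase. DDX58, the sensor RIG-I, was at 1.75 FPKM in shETS1 and 1.58 FPKM in shLuciferase. IFIH1, the sensor MDA5, was at 0.469 FPKM in shETS1 and 0.622 FPKM in shLuciferase. Each of these 4 had q = 0.9997 (authors' deposited table).

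ISG15 is a ubiquitin-like protein that HERC5 attaches to other proteins and USP18 removes. USP18, which also binds the type I interferon receptor and dampens its signal, was at 2.78 FPKM in shETS1 and 4.13 FPKM in shLuciferase, 1.49-fold lower. The authors' deposited table gives p = 0.0436 and q = 0.679 for it. ISG15 was at 39.6 FPKM in shETS1 and 46.3 FPKM in shLuciferase, a log2 ratio of -0.22, or -0.08 with a trend on GC content removed. The ligase gene HERC5 was at 1.30 FPKM in shETS1 and 1.00 FPKM in shLuciferase, a log2 ratio of 0.38, or 0.20 with 1 FPKM added to both levels. ISG15 and USP18 thus had ratios below 0 and HERC5 one above 0, also in these settings, and none passed.

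The transcription factors of the pathway lay close together in level and in difference. IRF7, which amplifies interferon production, was at 11.1 FPKM in shETS1 and 12.1 FPKM in shLuciferase. IRF1, a factor induced by interferon gamma, was at 9.90 FPKM in shETS1 and 10.97 FPKM in shLuciferase. IRF9, the DNA-binding partner of the STAT dimer, was at 7.54 FPKM in shETS1 and 8.36 FPKM in shLuciferase. STAT2, the STAT protein particular to type I and type III signals, was at 5.30 FPKM in shETS1 and 5.03 FPKM in shLuciferase. All 4 log2 ratios lay between -0.15 and 0.08, and the authors' deposited table gives q = 0.9997 for each. The deposited loci of IRF1 and IRF9 overlap those of other expressed genes, C5orf56 and RNF31, so their reads are less certain.

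Apart from the IFITM pair, the antiviral effectors had a mean below 1 FPKM or differed by less than that pair. IFI6, a mitochondrial protein that opposes apoptosis, was at 12.9 FPKM in shETS1 and 15.5 FPKM in shLuciferase. Of the IFIT proteins, IFIT1 binds viral RNA that lacks the host's cap methylation. IFIT3 was at 6.20 FPKM in shETS1 and 5.92 FPKM in shLuciferase, and IFIT5 was at 2.099 FPKM in shETS1 and 1.96 FPKM in shLuciferase. IFIT1 was at 1.03 FPKM in shETS1 and 0.957 FPKM in shLuciferase, and IFIT2 was at 0.479 FPKM in shETS1 and 0.426 FPKM in shLuciferase. The table gives these 4 IFIT genes and LIPA a shared locus on chromosome 10, and their log2 ratios, 0.07 to 0.17, were all slightly above 0, without any passing the test, although those of IFIT1, IFIT3 and IFIT5 lay below 0 once a trend with GC content was removed. IFI44 was at 2.96 FPKM in shETS1 and 2.25 FPKM in shLuciferase, a log2 ratio of 0.40 with q = 0.9997 (authors' deposited table).

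The 8 effectors that the authors did not test all had means below 1 FPKM. IFI27 was at 0.591 FPKM in shETS1 and 0.604 FPKM in shLuciferase, and IFI44L at 0.198 FPKM in shETS1 and 0.179 FPKM in shLuciferase. MX1, a dynamin-like GTPase active against influenza virus, was at 0.178 FPKM in shETS1 and 0.297 FPKM in shLuciferase. BST2, known as tetherin because it holds budding virions at the cell surface, was at 0.0342 FPKM in shETS1 and 0.0994 FPKM in shLuciferase. RSAD2, the radical SAM enzyme viperin, was at 0.0103 FPKM in shETS1 and 0.00354 FPKM in shLuciferase. XAF1 was at 0.0115 FPKM in shETS1 and 0.00362 FPKM in shLuciferase, while MX2 was listed at 0 in shETS1 and at 0.0115 FPKM in shLuciferase. With no p-value from the authors, no difference between the groups is read from these 8 genes.

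Class I molecules present peptides that the immunoproteasome cuts and the TAP transporter carries into the endoplasmic reticulum. TAP2, one of the transporter's subunits, was at 27.5 FPKM in shETS1 and 40.6 FPKM in shLuciferase, 1.48-fold lower. The authors' deposited table gives p = 0.0319 and q = 0.608 for it. TAP1, the other subunit, was at 5.71 FPKM in shETS1 and 4.86 FPKM in shLuciferase, a log2 ratio of 0.23. PSMB8, the inducible counterpart of the proteasome subunit PSMB5, was at 26.2 FPKM in shETS1 and 30.0 FPKM in shLuciferase. PSMB9, the counterpart of PSMB6, was at 8.34 FPKM in shETS1 and 6.29 FPKM in shLuciferase, a log2 ratio of 0.41. The 4 genes lie side by side within 46.9 kb, in the order TAP2, PSMB8, TAP1, PSMB9. The first pair had its lower level and the second pair its higher level in shETS1. PSMB8 and TAP1 had q = 0.9997 and PSMB9 q = 0.986 (authors' deposited table). None of the 4 passed, and no split along the region is read from these signs. PSMB5 itself stood far above PSMB8, at 279 FPKM in shETS1 and 257 FPKM in shLuciferase, and PSMB6 far above PSMB9, at 385 FPKM in shETS1 and 390 FPKM in shLuciferase.

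The peptide-binding molecules were abundant. B2M, the invariant light chain, was at 364 FPKM in shETS1 and 400.3 FPKM in shLuciferase. HLA-B was at 100.4 FPKM in shETS1 and 85.9 FPKM in shLuciferase, and HLA-C was at 45.4 FPKM in shETS1 and 50.6 FPKM in shLuciferase. The log2 ratios of the 3 were -0.14, 0.23 and -0.16, each with q = 0.9997 (authors' deposited table). With the trend on GC content removed they were -0.33 for B2M, 0.37 for HLA-B and -0.04 for HLA-C. The summed level of these 2 heavy chain genes was 0.400 of the B2M level in shETS1 and 0.341 in shLuciferase. HLA-B, HLA-C, TAP1, TAP2, PSMB8 and PSMB9 carry coordinates of an alternative haplotype contig of chromosome 6, and HLA-B and HLA-C share a deposited locus. Reads of these 6 genes may have been divided among copies of the region, and the highly variable HLA genes in particular are uncertain.

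**Figure D3:**
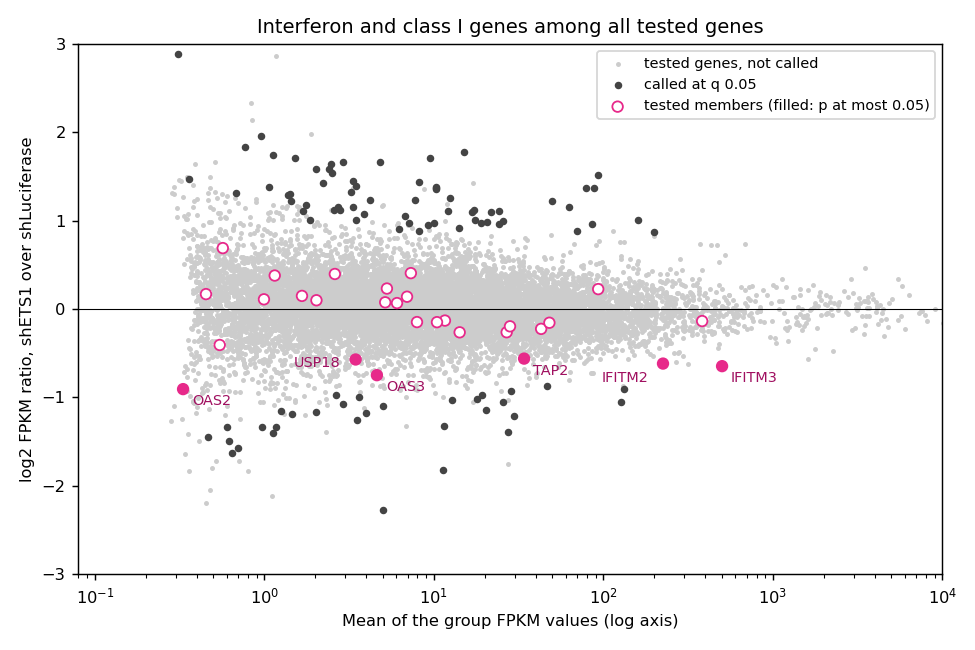
Log2 FPKM ratio (shETS1 over shLuciferase, vertical axis) against the mean of both group values (log FPKM axis) for tested genes, of which 4 lie outside the axes; dark points are genes called at a q-value of 0.05, grey points the others, and pink circles the 29 tested members, filled where the deposited p-value is at most 0.05. IFITM2 and IFITM3 lie at the lower edge of the cloud at their level, and no member lies among the called genes.

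What the table could call at these levels sets a bound on the reading. The smallest called change of any gene was 1.83-fold, also among the 989 tested genes with a mean of at least 100 FPKM, of which 4 were called. The largest difference of a member at that level was the 1.57-fold of IFITM3. From 20 to 100 FPKM the smallest called change was 1.83-fold and the largest of a member 1.48-fold (TAP2). From 1 to 5 FPKM these were 1.96-fold and 1.68-fold (OAS3). Below 1 FPKM they were 2.49-fold and 1.87-fold (OAS2), and from 5 to 20 FPKM 1.85-fold and 1.33-fold (PSMB9). In each of these ranges of level the largest difference of a member was below the smallest called one, which does not show that the levels were equal. Among all genes the IFITM pair lay far down in rank: 1.89% of the 10676 genes at 1 FPKM or more had a lower log2 ratio than IFITM3, and 2.18% a lower one than IFITM2. TAP2 had 2.91% of genes below it, USP18 2.74% and OAS3 1.05%.

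Over all genes the log2 ratio moved with base composition (Spearman rho -0.47 across 9677 genes, which are not independent replicates). The 24 members at 1 FPKM or more had a median transcript GC content of 53.8%, against 49.9% for all. With a trend on GC content removed, their median log2 ratio was -0.08, against -0.007 for all genes with a GC value. Then 17 of the 24 were below 0, and the share of all genes below 0 after removal was not computed. The 6 members with a p-value of at most 0.05 had transcripts of 47.5% to 56.9% GC and ratios of -0.95 to -0.54 after the trend was removed: -0.56 for IFITM3, -0.54 for IFITM2, -0.58 for TAP2, -0.55 for USP18, -0.69 for OAS3 and -0.95 for OAS2. The signs of EIF2AK2, DDX58, IFIT1, IFIT3 and IFIT5 turned from above to below 0, and that of IRF7 from below to above, so the direction of these 6 genes, also where they are counted below or above 0, depends on that trend. Ratios of IFI44 (0.19), IFIT2 (0.02), PSMB8 (-0.13) and IRF9 (-0.07) after removal kept their sign but were less far from 0.

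The promoters of the members were read from RefSeq (GRCh38.p14), whose windows run from 250 bases before to 50 bases after a transcription start. A window was found for 31 of the 38 genes, DDX58 under its current symbol RIGI; 9 genes had several windows and count as matching if any of them did. None was found for USP18, IRF7, OAS2, OASL, IFIT2, MX2 and IFITM2. The core of the interferon response element, searched on both strands as GAAA followed by any 2 bases and GAAA, occurred in 21 of the 31 members (67.7%). It occurred in 4.38% of all 27305 genes with a window and in 3.72% of the 9601 tested genes among them. By role, 12 of 13 antiviral effectors held it, 4 of 7 class I genes, 3 of 6 RNA sensors and enzymes, both genes of the ISG15 system with a window, and none of 3 transcription factors. The core of the gamma-activated site, TTC followed by any 3 bases and GAA, occurred in 9 members (29.03%) and in 9.38% of all genes; in 4 of these members a match overlapped a response element core. An ETS core, CCGGAAG on either strand, occurred in 3 members (9.68%), ADAR, RSAD2 and TAP1, against 12.2% of all genes and 23.2% of tested genes. Each of these 3 genes has several windows, of which only 1 held the match. In RSAD2 and TAP1 that was not the window with the response element core. A match is only a match of letters, and windows without one may hold other forms of the element. The members were chosen as interferon-stimulated and antigen presentation genes. A high share of the response element core goes with that choice and is no separate finding about these data.

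**Figure D4:**
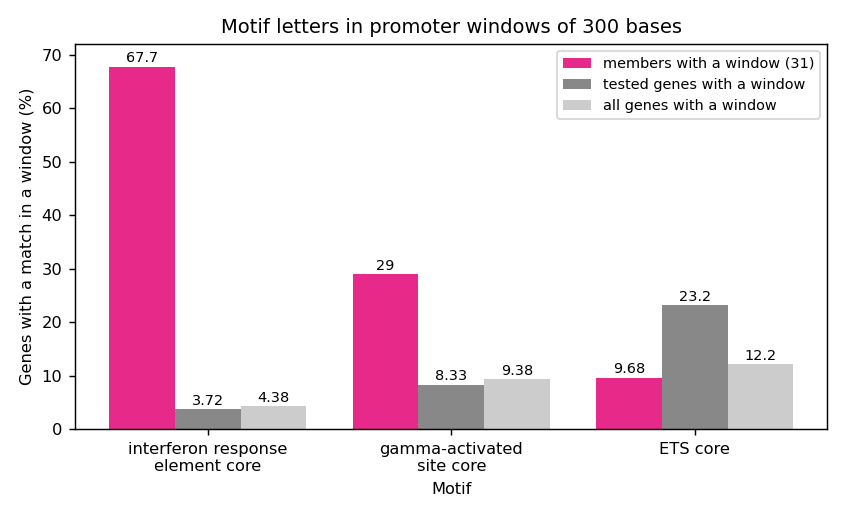
Share of genes with a match in a RefSeq promoter window (vertical axis, percent) for 3 motifs; pink bars are the 31 members with a window, dark grey bars the tested genes and light grey bars all genes with a window. The interferon response element core was found in 67.7% of members against 4.38% of all genes, and the ETS core in 9.68% against 12.2%. The members were chosen as interferon-stimulated and antigen presentation genes, so the first share is no separate finding about these data.

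The stretches of 150 bases before the transcription start are shown for the 4 members of the highest level that hold the response element core, with the cores in capitals and each sequence written 5′ to 3′ along the gene. They cover genes with a p-value of at most 0.05 (IFITM3 and TAP2) and genes far from it (B2M and ISG15). In IFITM3 the cores begin 52 and 35 bases before the start, and in TAP2 the core begins 58 bases before it. In B2M and ISG15 the cores overlap each other and lie further out, beginning 144 and 138 bases before the start of B2M and 113 and 107 bases before that of ISG15.
IFITM3 (chr11:320861-321010, minus strand): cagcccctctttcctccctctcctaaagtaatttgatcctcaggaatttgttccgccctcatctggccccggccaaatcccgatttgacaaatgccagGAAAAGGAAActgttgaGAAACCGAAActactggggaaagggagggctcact
TAP2 (chr6:32838740-32838889, minus strand): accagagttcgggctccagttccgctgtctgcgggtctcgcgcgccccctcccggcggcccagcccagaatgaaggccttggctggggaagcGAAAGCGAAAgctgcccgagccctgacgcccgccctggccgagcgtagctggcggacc
B2M (chr15:44711367-44711516, plus strand): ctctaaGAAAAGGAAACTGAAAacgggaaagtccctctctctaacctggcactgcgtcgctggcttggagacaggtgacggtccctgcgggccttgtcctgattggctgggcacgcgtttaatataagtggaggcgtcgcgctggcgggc
ISG15 (chr1:1013347-1013496, plus strand): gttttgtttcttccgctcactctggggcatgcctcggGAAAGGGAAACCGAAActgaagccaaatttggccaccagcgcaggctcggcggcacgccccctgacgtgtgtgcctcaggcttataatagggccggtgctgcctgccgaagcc

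The differences between the groups were then split by the core. Of the 13 members at 1 FPKM or more whose promoter held it, 7 had a log2 ratio below 0 with a median of -0.14, and 3 had a p-value of at most 0.05 in the authors' deposited table. Of the 8 without it, 4 were below 0 with a median of -0.04, and none had such a p-value. IFITM2 and USP18, both with such a p-value, and IRF7 had no window and enter neither count. Of the 2 members at that level with an ETS core, 1 was below 0 and none had such a p-value. Of the 19 without an ETS core, 10 were below 0 and 3 had one. These splits were not tested. TAP1 and PSMB9 face away from each other, and their windows share 13 bases; both had a log2 ratio above 0 and neither passed.

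The rest of the pathway was read from 6 further lists, with 155 genes in the table, of which 99 were tested and none called in the authors' deposited table. At an unadjusted p-value of at most 0.05 there were 3 with a higher and 4 with a lower level in shETS1, which is 7.07% of the 99 and near the share of all tested genes (6.94%). Of 21 interferon genes, 18 were listed at 0 in both groups, the other 3 were below 0.05 FPKM, and none was tested. IFNK was at 0.00960 FPKM in shETS1 and 0.0449 FPKM in shLuciferase.

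Receptors, kinases and inhibitors of the pathway had 14 tested genes and none called. Of the 13 at 1 FPKM or more, 10 had a log2 ratio above 0, with a median of 0.24. Among all 10676 tested genes at that level, 5612 were above 0 and the median was 0.02. The list's median transcript GC content was 47.9%, against 49.9% for all. With the GC trend removed its median log2 ratio was 0.18. None of the 14 had a p-value of at most 0.05 in the authors' deposited table. The kinase genes were the most abundant: JAK1 was at 40.7 FPKM in shETS1 and 37.5 FPKM in shLuciferase, and TYK2 at 23.7 FPKM in shETS1 and 28.8 FPKM in shLuciferase. IL10RB, a receptor chain of type III interferon, was at 15.6 FPKM in shETS1 and 12.8 FPKM in shLuciferase, and the phosphatase gene PTPN2 at 16.2 FPKM in shETS1 and 14.0 FPKM in shLuciferase. STAT3 was at 11.5 FPKM in shETS1 and 8.69 FPKM in shLuciferase, with q = 0.872 (authors' deposited table). SOCS1, a feedback inhibitor of Janus kinases, was at 14.3 FPKM in shETS1 and 10.9 FPKM in shLuciferase, and IFNGR1, a chain of the interferon gamma receptor, at 7.12 FPKM in shETS1 and 5.57 FPKM in shLuciferase.

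Adaptors and kinases of nucleic acid sensing had 16 tested genes, none called, and a median log2 ratio of -0.01. TMEM173, the adaptor STING of cytosolic DNA sensing, was at 17.3 FPKM in shETS1 and 11.8 FPKM in shLuciferase. The authors' deposited table lists it with p = 0.0266 and q = 0.555. TREX1, the nuclease that removes cytosolic DNA, was at 36.0 FPKM in shETS1 and 48.3 FPKM in shLuciferase. IRF3, the factor that STING and RIG-I signals activate, was at 48.6 FPKM in shETS1 and 49.8 FPKM in shLuciferase. The DNA sensor gene IFI16 was at 23.6 FPKM in shETS1 and 28.9 FPKM in shLuciferase, and TRIM25, a ubiquitin ligase that activates RIG-I, at 14.4 FPKM in shETS1 and 19.3 FPKM in shLuciferase.

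A further 58 interferon-stimulated genes included 44 tested ones, none called, with 23 of the 40 at 1 FPKM or more below 0 and a median log2 ratio of -0.04. The 3 with a p-value of at most 0.05 all had their lower level in shETS1. They are 6.82% of the 44, against 6.94% of all tested genes in either direction and 3.04% with a lower level. BATF2 was at 3.58 FPKM in shETS1 and 5.93 FPKM in shLuciferase, with q = 0.288 (authors' deposited table). PARP10, a mono-ADP-ribosyltransferase, was at 12.8 FPKM in shETS1 and 20.4 FPKM in shLuciferase, with q = 0.284 (authors' deposited table), and PARP12, of the same family, at 5.90 FPKM in shETS1 and 8.66 FPKM in shLuciferase. The most abundant were LGALS3BP at 151 FPKM in shETS1 and 210.1 FPKM in shLuciferase, and WARS, a tRNA synthetase gene, at 78.6 FPKM in shETS1 and 62.8 FPKM in shLuciferase. PML was at 56.0 FPKM in shETS1 and 54.0 FPKM in shLuciferase, and SP100, another nuclear body gene, at 27.5 FPKM in shETS1 and 32.9 FPKM in shLuciferase.

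Further class I genes (20 tested, none called) had a median log2 ratio of -0.02, and 18 of the 20 differed by at most 1.25-fold. ULBP2, a ligand of the natural killer cell receptor NKG2D, was at 8.41 FPKM in shETS1 and 5.42 FPKM in shLuciferase, with q = 0.500 (authors' deposited table). PSME3, a proteasome activator subunit, was at 58.9 FPKM in shETS1 and 83.7 FPKM in shLuciferase, with q = 0.644 (authors' deposited table). NLRC5, the transactivator of class I genes, was at 1.94 FPKM in shETS1 and 2.43 FPKM in shLuciferase. The chaperone gene CALR was at 603 FPKM in shETS1 and 628 FPKM in shLuciferase, and the proteasome subunit gene PSMB7 at 558 FPKM in shETS1 and 534 FPKM in shLuciferase. Of 17 class II genes, 5 were tested and none called, and 13 had a mean below 1 FPKM. RFXAP, a promoter-binding subunit needed for class II transcription, was at 1.80 FPKM in shETS1 and 1.09 FPKM in shLuciferase, with q = 0.481 (authors' deposited table). Its partners RFXANK (89.1 FPKM in shETS1 and 86.2 FPKM in shLuciferase) and RFX5 (12.9 FPKM in shETS1 and 11.5 FPKM in shLuciferase) were nearly level, and the protease gene CTSS was at 0.861 FPKM in shETS1 and 1.199 FPKM in shLuciferase.

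**Figure D5:**
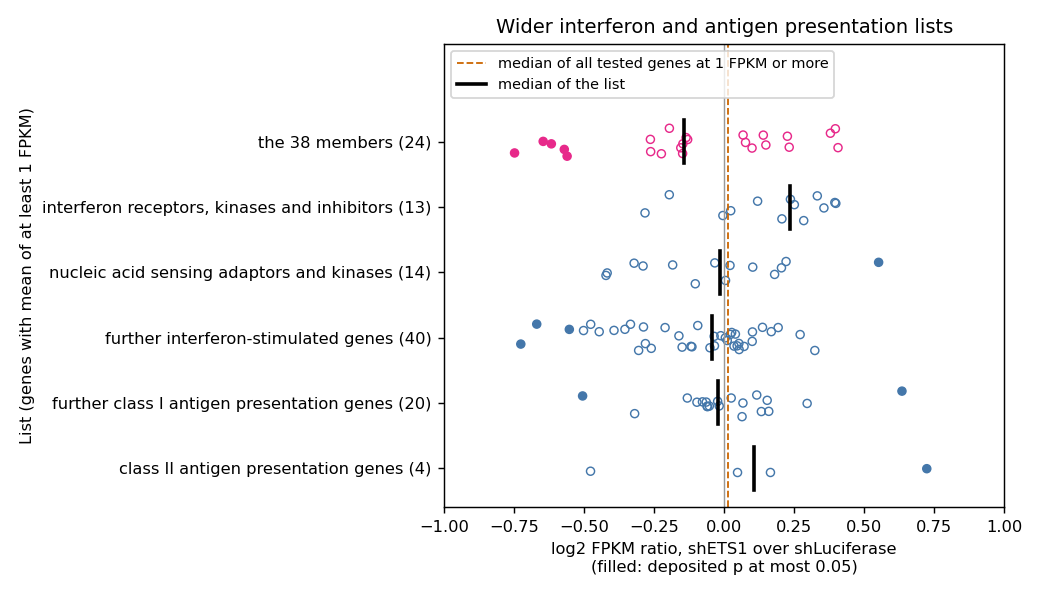
Log2 FPKM ratio (shETS1 over shLuciferase, horizontal axis) of tested genes with a mean of at least 1 FPKM in the members' list and 5 wider lists, with the number of genes in parentheses; filled circles have a deposited p-value of at most 0.05, black bars are list medians and the dashed line is the median of all tested genes at that level. The members' median lies at -0.14 and that of the receptors, kinases and inhibitors at 0.24.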

How the data were processed

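RNA of 6 samples, 3 of shETS1 and 3 of shLuciferase, was measured. Per the labels' protocols, RNA was selected for poly(A) tails and copied with random hexamers; no strand-marking step is described. The submitters' processing notes name build hg19 and the tools Cufflinks 2.1.1, SAMtools 0.1.18, Bowtie2 2.0.6 and TopHat2 2.0.7. The sources used here give neither the annotation nor the scaling between libraries. The authors deposited 1 FPKM value per gene and group, beside a p-value, a q-value, a log2 fold change and the score of the test, which was left aside, in the columns of a Cuffdiff table, per the file headers. The 11952 tested rows enter the deposited q-values, which match a Benjamini-Hochberg adjustment within 5.16e-07. Depth is unknown, and no values per sample were used, so the count or limma test considered did not apply.

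Log2 ratios were computed from the FPKM values and match the deposited ones within 6.10e-06 for members with finite values. Called means a deposited q at or under 0.05. Means are over both group values. GC content came from the GENCODE 29 transcript with the longest coding sequence, by symbol (90.6% of expressed genes), and its cubic trend was fitted on tested genes with a mean of at least 1 FPKM; the adjustment and the trend removal were tested on simulated data. Locus starts had 1 added so that they count from 1. Python 3.11.15, numpy 2.4.6, pandas 2.3.3 and scipy 1.17.1 were used. Named were ETS1, all members and genes from each wider list. The latter were called genes, up to 4 of the highest mean and up to 3 of the largest absolute log2 ratio at 1 FPKM or more. A few other genes were chosen after their values were seen. Members, roles and lists were chosen with earlier results of these data known. The alternatives varied the threshold, the pseudocount, the filter, the centring, the GC trend and the genes included.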

Additional observations from a re-analysis of the deposited data

How the results depend on the processing

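No member was called at a q-value of 0.10 or after adjustment over genes with a mean of at least 1 FPKM alone, and no gene of the wider lists at 0.10. At an unadjusted p-value of at most 0.05 there were 6 members and 7 genes of the wider lists. In settings chosen after seeing the data, the 6 became 5 with members at 1 FPKM or more, 4 without the IFITM and HLA genes, and 2 at a p-value of at most 0.01. The median log2 ratio of the members stayed below 0 in all 8 alternatives. It ran from -0.17 without members whose locus overlaps another expressed row to -0.08 with the GC trend removed. Of the 24 members at 1 FPKM or more, 14 were below 0 as deposited or with the median subtracted, and 17 with the GC trend removed. Of all 29 tested members 16 were below 0, and of the smaller number with a mean of at least 5 FPKM 12 were. Among the 29 tested members, adding 1 FPKM turned no sign and moved 8 ratios by over 0.1. Subtracting the median of all genes turned none and moved none by that much. Removing the GC trend turned 6 signs, and 14 ratios moved by over 0.1 or changed sign. No paired analysis was possible because the table holds 1 value per group. For the same reason no replicate could be left out, and both planned refits were not run. Unknown depth leaves the values under 1 FPKM without a detection limit.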
